A study of Mus musculus with 6 samples.

Results

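The genes described here are 40 named genes of the cell cycle and DNA replication, measured in fetal mouse back skin at e18.5. They were found by their gene symbol in the platform annotation of the array, and each is represented by its brightest probe set, that is, the one with the highest mean log2 signal over the 6 arrays. Of the 40 genes, 39 had a probe set that names that gene alone, out of 18193 genes with such a probe set, and all 39 lay at or above the signal filter that left 11387 genes for testing. Ccnb1, which encodes the mitotic cyclin B1, has no probe set that names it alone in the annotation used, and it has no value here. The members divide into 17 genes of DNA replication and the G1/S step, 22 genes of G2 and mitosis (21 measured), and the G1 cyclin gene Ccnd1.

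The study compared 3 Get1 +/+ with 3 Get1 -/- mice, 1 array per mouse, with total RNA from back skin. Get1 is an earlier name of Grhl3, a transcription factor of the grainyhead family that is needed for the skin barrier. The labels give no strain or sex, and they do not say which part of the gene was deleted or whether litters were shared. Back skin holds epidermis, hair follicles, dermis and muscle, so each value is a mixture, and in such bulk RNA fewer cycling cells and less RNA per cell cannot be told apart. Values are MAS5 signals in arbitrary units, scaled by the authors to one target on every array, and the number of arrays limits their precision. Each replicate is a separate mouse, so errors include the spread between animals.

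Cells that divide copy their DNA in S phase and separate it in mitosis. Mcm2 to Mcm7 form the ring-shaped helicase that Cdc6 and Cdt1 load on DNA in G1. Cyclin E and its kinase, with the E2F transcription factors, start the S phase programme, and cyclin A and cyclin B with Cdk1 drive the later steps. In late fetal skin the dividing cells are known to lie mainly in the basal layer of the epidermis and in the hair matrix, with further ones in the dermis, and cells leaving the basal layer stop dividing as they differentiate. Replication genes are largely switched on by E2F proteins, and many mitotic genes through the cell cycle homology region (CHR) and CCAAT boxes of their promoters.

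Promoter windows from RefSeq (GRCm38.p6), each 250 bases before and 50 after a gene start, were searched on both strands for these motifs. The letters were TTTGGCG and TTTCCCG for E2F, TTTGAA and TTCGAA for CHR, CCAAT for the CCAAT box, and AACCGGT for a grainyhead site, and none of them contains another. The table held 14 of the 17 replication genes (15 windows) and 18 of the 22 mitotic genes (18 windows), and had no entry for Ccne2 or Ccna2. An E2F match was present in 6 of 15 replication windows (Cdc6, Cdt1, Mcm3, Mcm5, Mcm6 and Mcm7) and 2 of 18 mitotic windows (Birc5 and Nusap1), against 4.84% of all 32851 windows. A CHR match was present in 14 of 18 mitotic windows, among them those of Mki67, Bub1, Cenpf, Cdk1, Plk1 and Top2a, and in 2 of 15 replication windows (Mcm2 and Mcm7), against 19.2% of all windows. A CCAAT match was present in 16 of 18 mitotic and 9 of 15 replication windows, against 37.4% of all. The grainyhead letters were found in the windows of Rrm2 and Hmgb2 alone, against 1.02% of all windows. These matches describe the sequence and are not measured binding sites.

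The 150 bases before the start are shown for 7 members, so that the replication and mitotic types can be compared. Rrm1, Pcna, Cenpf and Cenpe had the smallest p of their groups among genes with a promoter entry, and Mki67, Bub1 and Mcm5 were chosen after their values were seen. Sequences run 5′ to 3′ on the strand of the gene, and capitals mark the motifs above or their reverse complements.
Mcm5 (chr8:75109359-75109508, plus strand): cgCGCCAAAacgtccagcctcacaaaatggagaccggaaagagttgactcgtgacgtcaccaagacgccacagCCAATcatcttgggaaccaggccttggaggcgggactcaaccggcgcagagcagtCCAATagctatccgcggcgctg
Pcna (chr2:132253181-132253330, minus strand): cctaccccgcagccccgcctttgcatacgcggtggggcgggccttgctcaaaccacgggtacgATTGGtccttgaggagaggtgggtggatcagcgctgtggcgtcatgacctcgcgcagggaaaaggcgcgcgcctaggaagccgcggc
Rrm1 (chr7:102441545-102441694, plus strand): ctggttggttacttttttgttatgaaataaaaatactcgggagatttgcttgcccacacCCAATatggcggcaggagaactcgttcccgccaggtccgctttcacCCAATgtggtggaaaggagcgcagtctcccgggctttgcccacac
Mki67 (chr7:135716380-135716529, minus strand): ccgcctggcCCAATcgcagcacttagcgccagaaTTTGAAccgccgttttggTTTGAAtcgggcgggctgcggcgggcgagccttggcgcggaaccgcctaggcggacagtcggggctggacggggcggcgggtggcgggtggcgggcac
Bub1 (chr2:127831860-127832009, minus strand): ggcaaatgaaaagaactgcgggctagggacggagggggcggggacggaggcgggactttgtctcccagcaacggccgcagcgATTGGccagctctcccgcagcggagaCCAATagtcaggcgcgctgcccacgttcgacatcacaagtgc
Cenpf (chr1:189688087-189688236, minus strand): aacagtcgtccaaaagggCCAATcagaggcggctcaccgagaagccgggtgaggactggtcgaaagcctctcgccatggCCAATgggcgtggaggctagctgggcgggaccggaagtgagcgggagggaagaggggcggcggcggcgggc
Cenpe (chr3:135212413-135212562, plus strand): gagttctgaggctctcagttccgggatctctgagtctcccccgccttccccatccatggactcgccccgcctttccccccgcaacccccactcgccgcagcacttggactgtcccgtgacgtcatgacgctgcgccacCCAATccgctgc
Mcm5 holds an E2F match, read on the opposite strand, and a pair of CCAAT boxes. Mki67 holds 2 CHR matches beside a CCAAT box. The CHR matches of Cenpf and Bub1 lie just after the start, outside the bases shown, and Cenpe, Pcna and Rrm1 show CCAAT boxes alone.

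The only kept probe set of Grhl3 read 478, 934 and 670.1 in Get1 +/+ and 246, 413 and 379.7 in Get1 -/- skin (replicates 1 to 3 in each). The genotypes did not overlap, but the log2 change of -0.98 ± 0.28 (SE) missed the threshold over all genes (limma, adjusted p = 0.497). Arrays correlated at 0.946 to 0.97 within and at 0.925 to 0.976 between genotypes over the 11387 genes. Of these genes 5, or 0.0439%, passed an adjusted p of 0.05 in either direction.

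None of the 39 measured members passed that threshold (limma, smallest adjusted p = 0.567). At an unadjusted p under 0.05 there were 5 members, all with higher means in Get1 -/- skin. They were the mitotic genes Cenpf, Cenpe, Mki67 and Bub1 and the cyclin gene Ccne2. Among all genes 3.89% were higher and 4.29% lower at that level. The intervals of the other 34 members lay within 1 log2 unit of 0, that is, within a 2-fold change either way, and their estimates ran from -0.19 to 0.35.

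**Figure D1:**
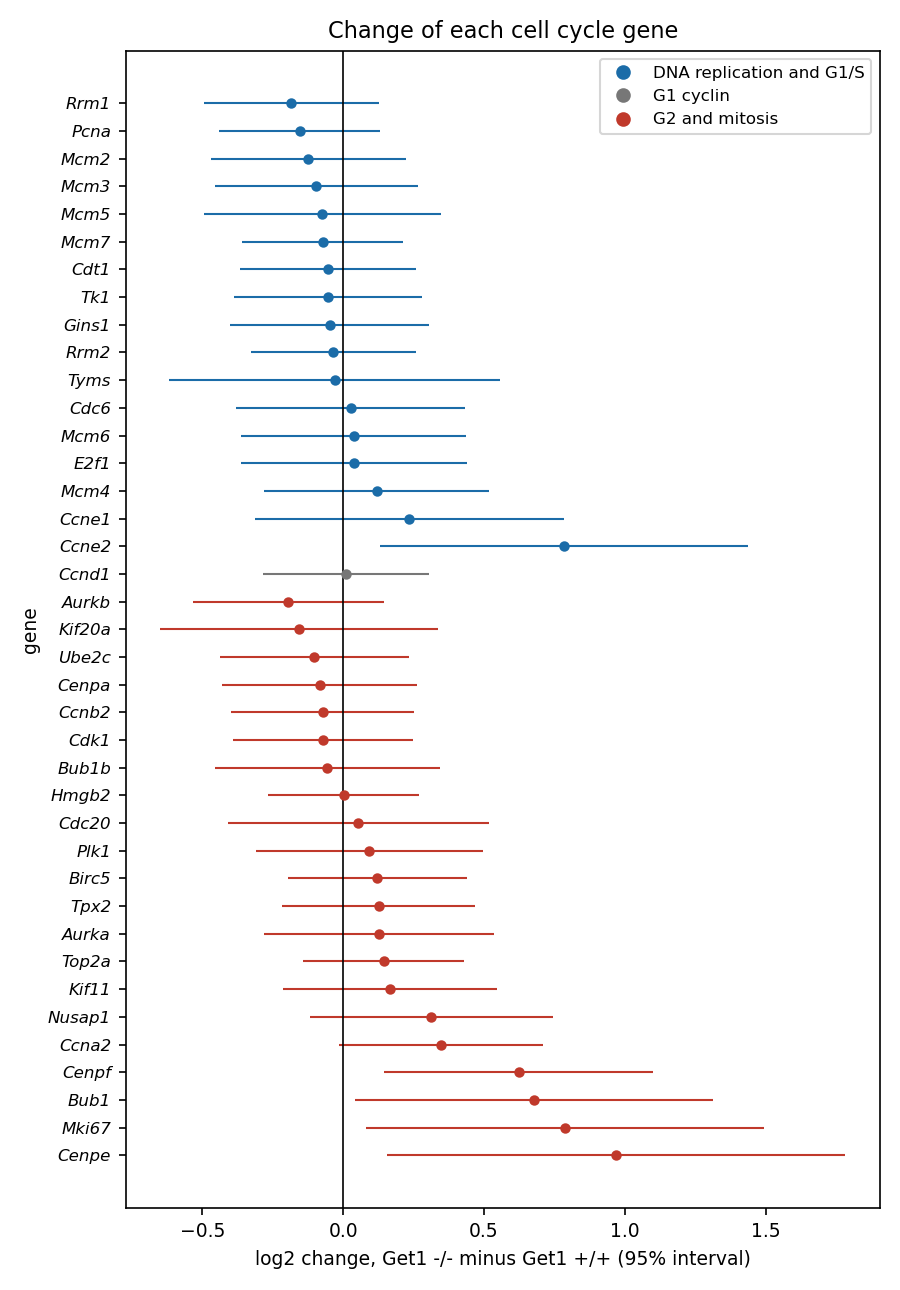
Log2 change between genotypes (Get1 -/- minus Get1 +/+) with its 95% interval from limma for the 39 measured genes (n = 3 arrays per genotype), ordered within replication and G1/S genes (blue), Ccnd1 (grey) and G2 and mitosis genes (red). The intervals of 5 genes, Ccne2, Cenpf, Bub1, Mki67 and Cenpe, lie above 0, and those of the other 34 include 0.

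Among the replication genes 6 of 17 were higher and 11 lower in Get1 -/- skin, with a median log2 change of -0.046 beside 0.0076 for all genes tested. Over all genes 51.3% were higher. The helicase subunits lay close to 0. Mcm2 (-0.12), Mcm3 (-0.095), Mcm5 (-0.073) and Mcm7 (-0.072) were lower on the log2 scale and Mcm6 (0.037) and Mcm4 (0.12) higher, with standard errors of 0.13 to 0.19. Their intervals together ran from -0.50 to 0.52, and the genotypes overlapped for all 6 subunits. The helicase loaders Cdt1 (-0.054 ± 0.14) and Cdc6 (0.028 ± 0.18) and Gins1 (-0.046 ± 0.16), a subunit of the GINS complex that joins the helicase at the fork, differed as little.

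Pcna, the sliding clamp of DNA polymerase, read 9436, 11355 and 10287 in Get1 +/+ and 8298, 10143 and 9499.6 in Get1 -/- skin. The genotypes overlapped, and the log2 change was -0.15 ± 0.13 (SE, adjusted p = 0.795 with limma). Rrm1, the large subunit of ribonucleotide reductase, read 2941, 2991 and 3458 in Get1 +/+ and 2562, 2688 and 3017 in Get1 -/- skin. Its log2 change was -0.18 ± 0.14 (SE, adjusted p = 0.77 with limma), and the second kept probe set gave -0.46 ± 0.21. Rrm1 had the most negative estimate of the replication genes, and its genotypes overlapped on both probe sets. The other nucleotide supply genes lay near 0, namely Rrm2 (-0.035 ± 0.13), which encodes the small reductase subunit, thymidine kinase Tk1 (-0.053 ± 0.15) and thymidylate synthase Tyms (-0.030 ± 0.26).

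Ccne2, which encodes cyclin E2, stood apart from the rest of this group. It read 709, 359.5 and 321 in Get1 +/+ and 661, 898 and 702 in Get1 -/- skin. Get1 +/+ replicate 1 lay within the Get1 -/- range and the other Get1 +/+ arrays lay well below it, so the genotypes overlapped. The log2 change was 0.78 ± 0.29 (SE, 95% interval 0.13 to 1.44) and the adjusted p 0.58 (limma). Its paralogue Ccne1 differed by 0.24 ± 0.24 on the brightest probe set, and on the other kept one it read 292, 374 and 376 in Get1 +/+ and 482, 423 and 442 in Get1 -/- skin. On that second probe set the genotypes did not overlap, at a log2 change of 0.38 ± 0.19 (adjusted p = 0.743 over probe sets, limma). E2f1, an activator of the S phase programme, differed by 0.038 ± 0.18 on the brightest probe set and by 0.53 ± 0.21 on the other kept one (adjusted p = 0.737 over probe sets, limma), so its probe sets disagreed in size. The second E2f1 probe set read 280, 400.1 and 306 in Get1 +/+ and 405, 474 and 534 in Get1 -/- skin, without overlap.

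Ccnd1, which encodes cyclin D1 and links growth signals to cell cycle entry, read 4049, 4046 and 4396 in Get1 +/+ and 4679.6, 4090.0 and 3836 in Get1 -/- skin. The log2 change was 0.0093 ± 0.13, with a 95% interval of -0.29 to 0.30. Its other kept probe sets gave -0.18 ± 0.28 and 0.0064 ± 0.45.

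Among the mitotic genes 14 of 21 were higher and 7 lower in Get1 -/- skin, with a median log2 change of 0.12. The proliferation marker Mki67 (Ki-67) read 6764, 3114 and 2422 in Get1 +/+ and 6439, 6507 and 6274 in Get1 -/- skin. The Get1 -/- arrays agreed closely (6407 ± 119.7, SD, n = 3), whereas Get1 +/+ replicate 1 lay above all of them and replicates 2 and 3 were less bright than any (4100.2 ± 2333). The log2 change was 0.79 ± 0.31 (SE, 95% interval 0.081 to 1.5), and the adjusted p was 0.588 (limma).

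The kinetochore genes Cenpe and Cenpf and the checkpoint kinase gene Bub1 shared one feature with Mki67, namely that Get1 +/+ replicates 2 and 3 lay below all Get1 -/- arrays. The feature was not particular to these genes. Ccne2, Ccna2, Top2a, Nusap1, Kif11 and Tpx2 showed it too on their brightest probe sets. For Tpx2 the margin was narrow (1050 and 1052 against a lowest Get1 -/- value of 1057). Cenpe, a kinetochore motor, read 1108, 381 and 390.4 in Get1 +/+ and 1094, 1090.5 and 1037 in Get1 -/- skin. Its log2 change of 0.97 ± 0.36 was the highest of the 39 members (95% interval 0.15 to 1.78, adjusted p = 0.58 with limma). Get1 +/+ replicate 1 was above the Get1 -/- range, and the other Get1 +/+ arrays lay far below it.

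Cenpf, a kinetochore protein of late G2, read 1552, 965 and 917 in Get1 +/+ and 1591, 1888 and 1669.7 in Get1 -/- skin. The lowest Get1 -/- value lay just above the highest Get1 +/+ value, and the log2 change was 0.62 ± 0.21 (SE, adjusted p = 0.567 with limma). Its dimmer second probe set (178, 126 and 138 against 185, 189 and 189) did not overlap either, at 0.36 ± 0.25. Bub1 read 1177, 685 and 493 in Get1 +/+ and 1095, 1325 and 1119 in Get1 -/- skin, a log2 change of 0.68 ± 0.28 (SE, adjusted p = 0.597 with limma). Its genotypes overlapped through replicate 1 of Get1 +/+, and its second probe set gave 0.44 ± 0.27.

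Ccna2, which encodes cyclin A2, and Cenpf were the 2 members whose genotypes did not overlap on the brightest probe set, and on those probe sets 0 members were lower without overlap. It read 2531, 2135 and 2274 in Get1 +/+ and 3559.8, 2589 and 2754 in Get1 -/- skin, a log2 change of 0.35 ± 0.16 (SE, adjusted p = 0.608 with limma). Its second kept probe set, of similar brightness, gave -0.084 ± 0.14 with overlapping genotypes, so the probe sets did not share a direction. Over all genes 5.2% were higher and 6.78% lower without overlap, and the 2 of 39 members sit near the first of these shares.

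**Figure D2:**
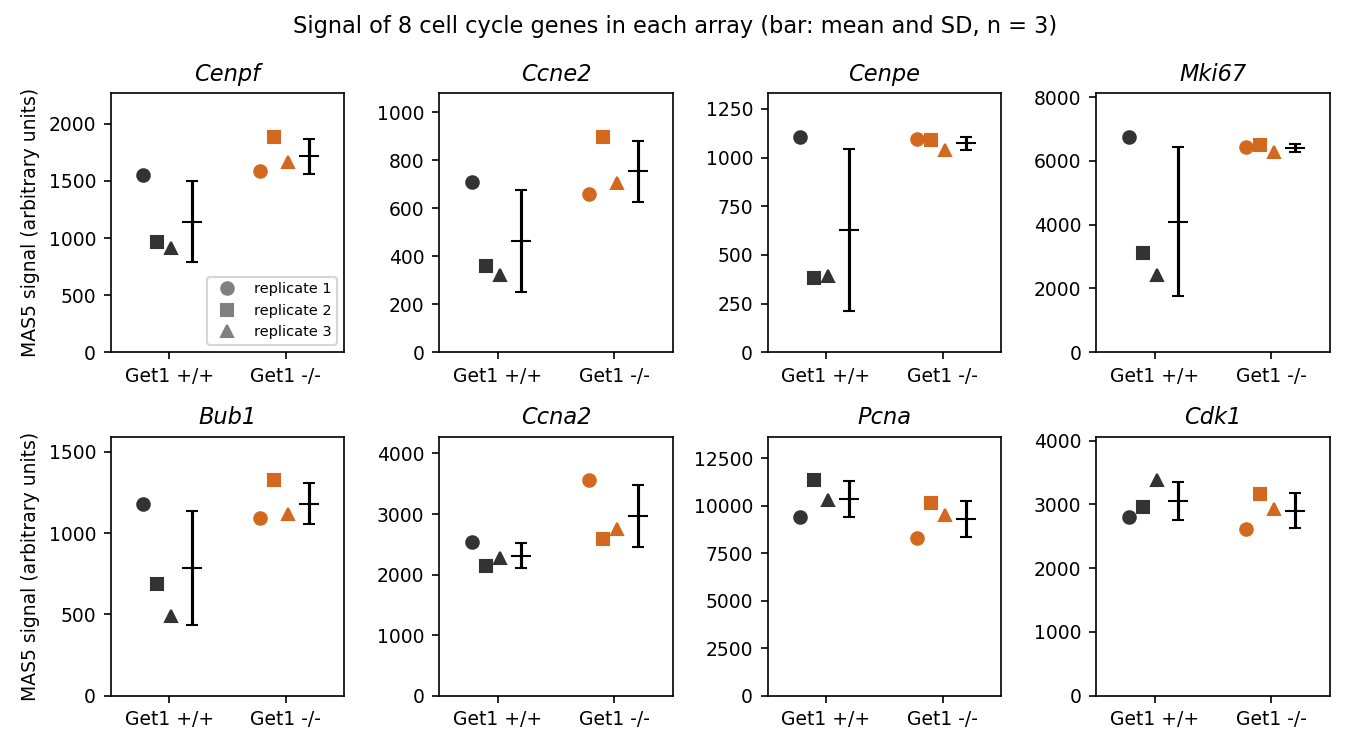
MAS5 signal (arbitrary units, linear axis from 0) of 8 cell cycle genes in each array, with replicates marked by shape, Get1 +/+ in black, Get1 -/- in orange, and the mean and SD of 3 arrays as bars. In Cenpe, Mki67, Bub1, Ccne2 and Cenpf the circle of Get1 +/+ replicate 1 lies at or near the Get1 -/- level and replicates 2 and 3 lie lower, while Pcna and Cdk1 show no such gap.

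The remaining mitotic genes were close to 0 in both directions. Cdk1, the mitotic kinase, read 2803, 2966 and 3382 in Get1 +/+ and 2611, 3167.5 and 2932 in Get1 -/- skin, a log2 change of -0.071 ± 0.14. Its 95% interval ran from -0.39 to 0.25, and the genotypes overlapped. Ccnb2, the second B-type cyclin gene, differed by -0.072 ± 0.14. The kinase genes Plk1 (0.093 ± 0.18), Aurka (0.13 ± 0.18) and Aurkb (-0.19 ± 0.15) and the Aurora B partner Birc5 (0.12 ± 0.14) did not pass. Neither did Bub1b (-0.056 ± 0.18), which acts in the same spindle checkpoint as Bub1, nor Cenpa (-0.083 ± 0.15), the histone of the centromere. The genes of mitotic exit were likewise near 0 on the brightest probe set, with Cdc20 at 0.053 ± 0.21 and the ubiquitin-conjugating enzyme gene Ube2c at -0.10 ± 0.15. The other kept Cdc20 probe sets had the opposite sign, at -0.22 ± 0.17 and -0.35 ± 0.26, with overlapping genotypes.

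Of the spindle genes, 3 of 4 were higher. The spindle motor Kif11 differed by 0.17 ± 0.17, the microtubule-binding Nusap1 by 0.31 ± 0.19 and Tpx2, which activates Aurora A, by 0.13 ± 0.15, whereas Kif20a, a kinesin of cytokinesis, was at -0.16 ± 0.22. The chromatin genes Top2a (0.14 ± 0.13), the topoisomerase that untangles chromosomes, and Hmgb2 (0.0023 ± 0.12) completed the group. Without Mki67, Bub1, Cenpe and Cenpf, a group set after their values were seen, the median of the other 17 mitotic genes was 0.053, with 10 higher and 7 lower.

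**Figure D3:**
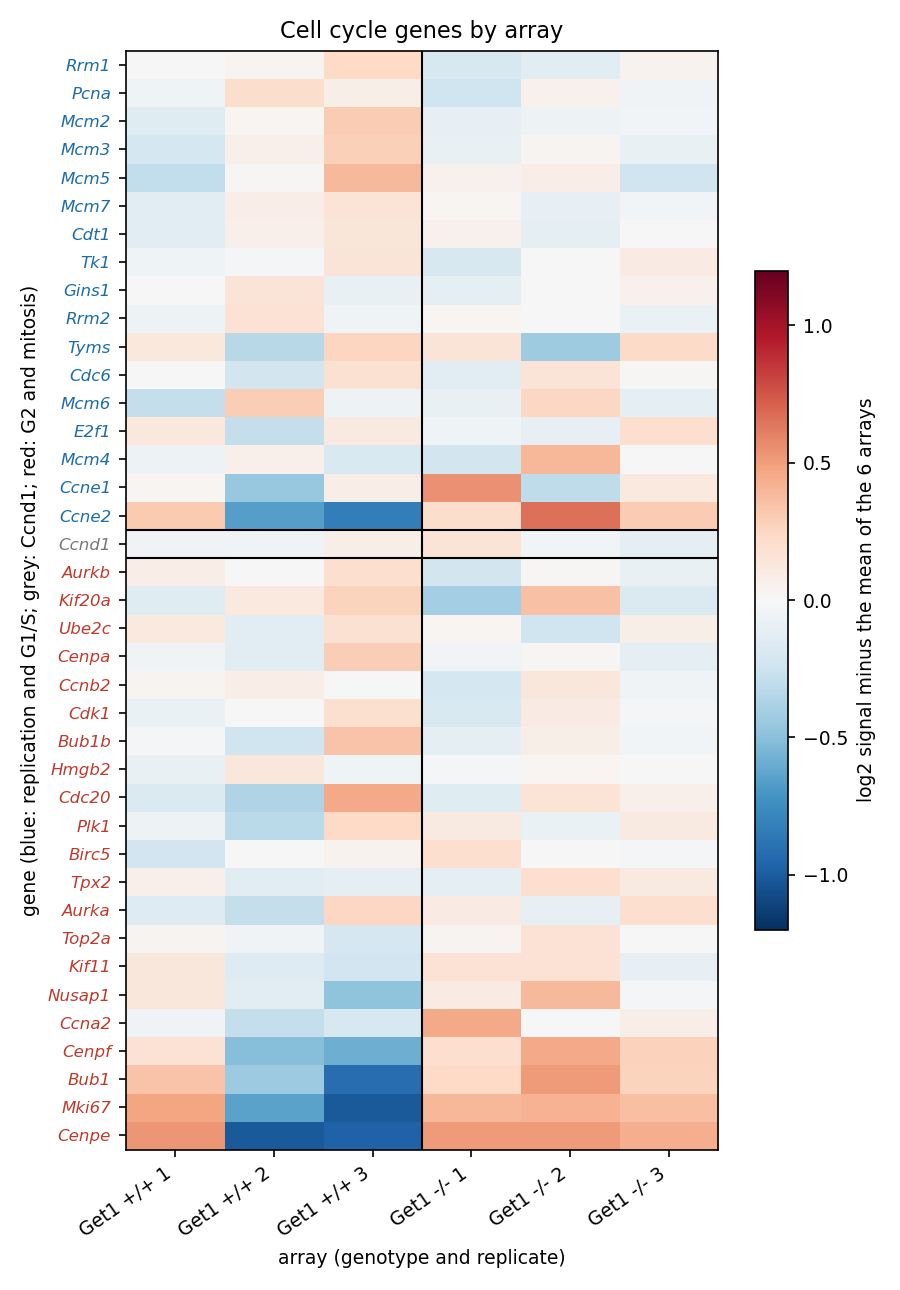
Log2 signal of the 39 genes in each of the 6 arrays, minus the mean of that gene over all arrays (red higher, blue lower), with replication genes at the top, Ccnd1 in the middle and mitotic genes at the bottom. The darkest blue cells lie in Get1 +/+ replicates 2 and 3, in the rows of Cenpe, Mki67, Bub1 and Ccne2.

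Set against each other, the replication genes had a median change 0.17 log2 units below that of the mitotic genes, a difference of -0.17. It was -0.084 without Get1 +/+ replicate 3 and -0.11 with the beta-actin control split as a block. That block divides these same arrays at the median signal of a beta-actin control probe set and is not a batch given by the labels. Without Get1 +/+ replicate 3 the median of the replication genes turned to 0.014, and with the block that of the mitotic genes was 0.059. Mki67, Top2a, Ccna2 and Hmgb2, counted here as mitotic, span S phase and G2/M. Without them the mitotic median was 0.093 and the difference -0.14. The difference is given without a test, because the members were chosen with results known. By array, the median deviation of the replication genes from their 6-array means was -0.053, 0.030 and 0.15 in Get1 +/+ and -0.088, 0.0070 and 0.0061 in Get1 -/- skin. That of the mitotic genes was 0.029, -0.14 and -0.0073 in Get1 +/+ and 0.037, 0.14 and 0.0072 in Get1 -/- skin. In both groups the genotypes overlapped. The replication median minus the mitotic median was -0.083, 0.170 and 0.153 in Get1 +/+ and -0.125, -0.132 and -0.0011 in Get1 -/- skin. Here too the genotypes overlapped, because Get1 +/+ replicate 1 lay within the Get1 -/- range. The spread of these medians between arrays of a genotype (pooled SD, n = 3 per genotype) was 0.080 for replication genes, 0.080 for mitotic genes and 0.113 for the difference between the groups.

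The members with the highest changes turned on 1 control array. Without Get1 +/+ replicate 1, 4 of the 39 members passed over all genes (limma), all higher in Get1 -/- skin. These were Cenpe (1.48 ± 0.16, adjusted p = 0.0153), Mki67 (1.22 ± 0.15, adjusted p = 0.0212), Ccne2 (1.14 ± 0.20, adjusted p = 0.0459) and Cenpf (0.86 ± 0.16, adjusted p = 0.0489). Bub1 missed narrowly at 1.02 ± 0.20 (adjusted p = 0.0589). Over all genes 0.861% then passed as higher and 0.211% as lower, 122 genes in all, where the full set of arrays gave 5. Without Get1 +/+ replicate 2 or without replicate 3, 0 members were at an unadjusted p under 0.05, and the smallest adjusted p was 0.975 and 0.835 (limma). There Mki67 differed by 0.66 ± 0.35 and 0.48 ± 0.29. The signal of Get1 +/+ replicate 1 was over 1.5 times the mean of the other Get1 +/+ arrays (on the log2 scale) in 5 of 39 members, the same 5 genes, and in 9.57% of all genes. The labels give nothing that sets this mouse apart, and what separates it from the other controls was not tested.

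**Figure D4:**
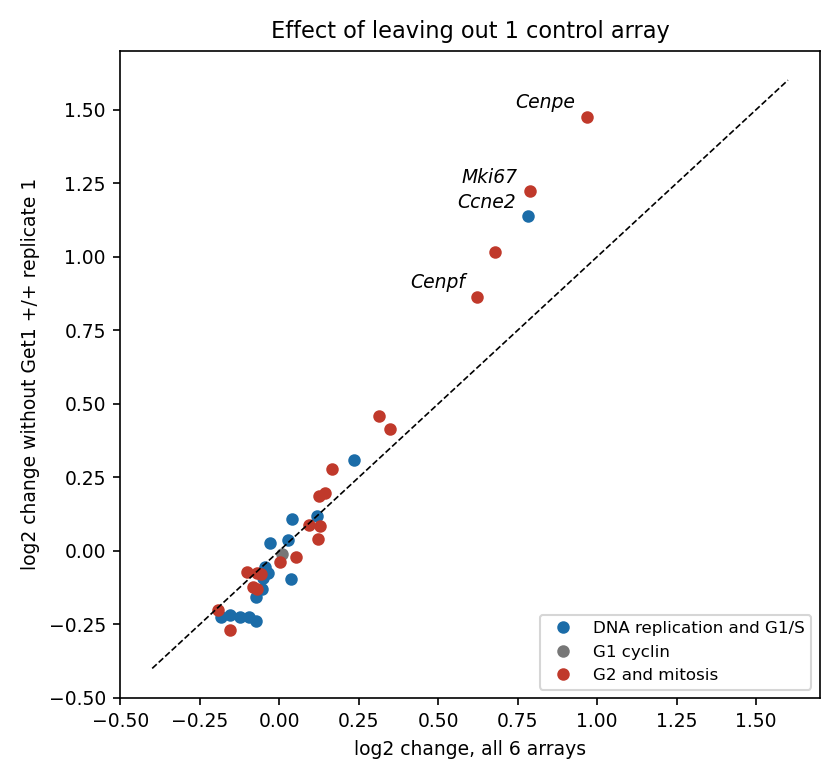
Log2 change of the 39 genes (Get1 -/- minus Get1 +/+) with all 6 arrays (x axis) against that without Get1 +/+ replicate 1 (y axis), with equal values on the dashed line and genes that pass over all genes in the second fit named. Cenpe, Mki67, Ccne2 and Cenpf move up to between 0.86 and 1.48, and the other genes apart from Bub1 stay below 0.5.

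Where a member had several kept probe sets, they mostly gave the same direction. The 39 genes had 70 kept probe sets, and the 31 beyond the brightest belonged to 23 genes. Of these 31, 24 had the sign of the brightest, and they ran from -0.46 for Rrm1 to 0.53 for E2f1. Mki67, Cenpe and Ccne2 each had 1 kept probe set, and a second one of Cenpe lay below the filter.

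Other genes of the same pathways, from lists of the replication machinery, mitosis, cell cycle entry, inhibitors of cyclin-dependent kinases and p53 targets, likewise had 0 genes past the threshold (limma). At an unadjusted p under 0.05 the replication list had 1 gene lower, the mitotic list 3 higher and 2 lower, the regulators 1 higher, the inhibitors 1 lower and the p53 targets 1 higher. The shares over all genes at that level were 3.89% higher and 4.29% lower. Without overlap, the replication list had 2 lower, the mitotic list 2 higher and 2 lower, the regulators 1 higher and 3 lower and the inhibitors 1 lower. The shares over all genes without overlap were 5.2% higher and 6.78% lower. Of 39 other replication genes 21 were higher and 18 lower (median 0.011). Pole2, a subunit of DNA polymerase epsilon, went from 983 ± 147.7 to 653 ± 132.6 (SD, n = 3), a log2 change of -0.60 ± 0.19 without overlap (adjusted p = 0.567 with limma). Chaf1b, a histone chaperone subunit of the fork, was lower without overlap at -0.33 ± 0.18, and the replication kinase gene Cdc7 was at 0.36 ± 0.18.

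Of 45 other mitotic genes 31 were higher and 14 lower, with a median of 0.14 close to that of the mitotic members. Smc4, a subunit of the condensin ring that compacts chromosomes, read 3833, 1491 and 1292 in Get1 +/+ skin. Replicates 2 and 3 lay below all Get1 -/- arrays (lowest 3669.8), and replicate 1 lay within their range. Smc4 differed by 1.01 ± 0.35 with all arrays (adjusted p = 0.567, limma) and by 1.5 without Get1 +/+ replicate 1 (adjusted p = 0.0127, limma). In the other direction, securin Pttg1, which holds back the separation of sister chromatids, went from 5121 ± 299.7 to 3346 ± 1047 (SD, n = 3), a log2 change of -0.66 ± 0.20 without overlap. Fam83d, a spindle protein, went from 842 ± 174.6 to 533 ± 27.1, a log2 change of -0.64 ± 0.19 without overlap (adjusted p = 0.502 with limma).

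Among 27 regulators of cell cycle entry 12 were higher and 15 lower (median -0.040). E2f2 read 459 ± 145.8 in Get1 +/+ and 789 ± 136.1 in Get1 -/- skin, a log2 change of 0.81 ± 0.24 without overlap (adjusted p = 0.502 with limma). E2f2 lies 15 protein-coding genes from Grhl3 in the RefSeq gene order, and the part of that position in its value was not tested. Cyclin D2 (Ccnd2) was at -0.27 ± 0.12 without overlap, and Skp2, which marks cell cycle inhibitors for degradation, at 0.38 ± 0.20.

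Of 6 CDK inhibitors 4 were higher and 2 lower. Cdkn1a (p21), which halts the cycle and is a classic p53 target, read 5111 ± 47.1 in Get1 +/+ and 4122 ± 599 in Get1 -/- skin. The genotypes did not overlap, at a log2 change of -0.32 ± 0.14 (adjusted p = 0.606 with limma). Cdkn1c (p57), a further inhibitor of the same family, was at 0.33 ± 0.17 and Cdkn2c at -0.17 ± 0.16. Of the 13 p53 targets 6 were higher and 7 lower (median -0.026). Ccng1 differed by 0.73 ± 0.27 and passed without Get1 +/+ replicate 1 (1.06, adjusted p = 0.0436 with limma). Plk3 was at -0.76 ± 0.36 and Zmat3 at -0.27 ± 0.16.

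Markers of the tissue's cell types varied between arrays beside these values. The summed signal of 7 basal keratinocyte markers, among them Krt5 and Krt14, ran from 57878 to 69738 in Get1 +/+ and from 57375 to 58676 in Get1 -/- skin, with 6 of 7 lower. In Get1 +/+ replicate 1, the control array with the bright Mki67, that sum was at its Get1 +/+ minimum. For 9 hair matrix and inner root sheath markers the sum ran from 10897 to 37897 in Get1 +/+ and from 8758 to 14029 in Get1 -/- skin, with 9 of 9 lower and Get1 +/+ replicate 1 again the lowest control. Much of the Get1 +/+ spread came from its keratins, such as Krt25 (2274, 5315 and 11289), so the sum does not measure dividing matrix cells alone. Replicate 1 was the lowest control for Msx2, Lef1 and Dlx3 but not for Shh (2895, 2872 and 4226). Get1 +/+ replicate 1 was also the lowest control for the melanocyte and adipocyte sums. It was the highest control for the suprabasal, fibroblast, muscle, endothelial and erythroid sums, and the middle one for macrophage and lymphoid markers.

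For the other cell types, the sum of 7 dermal fibroblast markers overlapped fully, at 129864 to 158407 and 132195 to 151998. Of 8 macrophage and lymphoid markers 7 were measured, 6 of them higher, with sums of 7379 to 10763 and 10134 to 11878, and Cd3e, which marks T cells, read below the filter. The 5 endothelial markers were all higher (3467 to 4086 against 3996 to 4826), as were the 7 muscle markers (79155 to 119930.0 against 93088 to 134820.0). Suprabasal keratinocyte markers were 6 of 6 lower (128430.0 to 140171 against 102045 to 129063) and melanocyte markers 5 of 6 lower (7045 to 12488 against 6228 to 8106). Of 5 adipocyte markers 4 were measured, 3 of them higher (28116 to 35062 against 30169 to 40372). Of 7 erythroid markers only 2 were measured, and Hba-a1 and Epb42 read below the filter. The part of these cell types in the values of the cell cycle genes was not tested.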

How the data were processed

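Total RNA of back skin at e18.5 was labelled as biotinylated cRNA and hybridised to oligonucleotide arrays, per the labels' protocols. The deposited values are linear signal intensities made by the authors with MAS5 (version not given in the sources used here), per the submitters' processing notes. The 2% trimmed mean was 500 on every array, so no further scaling was applied. Of 45101 probe sets 64 controls were left out. Values were turned into log2, and probe sets at or above the median mean (a signal of 137) were kept, 22519 of 45037. Each gene took its brightest probe set among those with 1 symbol in the platform annotation, which gave 11387 genes. Of the single-symbol probe sets 99.4% matched the RefSeq table of GRCm38.p6 by Entrez identifier, with 0 symbols changed.

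The comparison of genotypes used limma 3.58.1 under R 4.3.3 (a linear model with eBayes and a mean trend, two-sided), with Benjamini-Hochberg adjustment over all genes, or over all kept probe sets where that is stated, and a threshold of 0.05. Errors after ± on log2 changes are standard errors (SE), others SD (n = 3), and intervals are 95%. The fit was tested on simulated data. Groups of members were described by counts and medians, with no test. The members and lists were chosen with earlier results of these data known. Genes named in full were the 3 with the smallest p in each group, Mki67, Pcna, Cdk1 and Ccnd1, and any at an unadjusted p under 0.05 or without overlap, and of the other lists up to 3 with the smallest p.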

Additional observations from a re-analysis of the deposited data

How the results depend on the processing

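Across 17 alternatives the members gave 660 changes, of which 610 kept their sign and stayed short of the threshold, 46 changed sign without passing, and 4 passed, those without Get1 +/+ replicate 1. The changes of sign fell on 20 genes whose change was at most 0.16 in size. With each array left out in turn, all genes past the threshold numbered 3 to 122, members past it 0 to 4, and members at an unadjusted p under 0.05 from 0 to 7. The median of the replication genes then ran from -0.091 to 0.014 and that of the mitotic genes from 0.061 to 0.11, and their difference from -0.17 to -0.084. All genes past the threshold numbered 10 with median centring and 8 with array weights. With the replicate number as a block (replicate block) they numbered 44, with 0 members among them. The deviations of same-numbered mice from their genotype means correlated at -0.020, 0.36 and -0.025 over genes and at 0.13, 0.26 and 0.14 over probe sets. The hint of pairing thus differs between the tables, and the fit without the block was kept. In the 11 alternatives that left out no array, the smallest adjusted p of a member (limma) was 0.239, with array weights, and with the beta-actin control split as a block it was 0.452.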
